A study of Mus musculus with 18 samples.

Results

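The chemokine ligand genes were taken as every gene symbol in the count tables that begins with Ccl, Cxcl, Xcl or Cx3cl and goes on with a number, with or without small letters after it. This gave 40 genes of 55453. They were followed in bulk RNA-seq of 18 mouse aortae from 2 genome editing experiments on the CArG box of *Tspan2*, the short sequence to which serum response factor binds. In the HDR experiment (homology-directed repair after a Cas9 cut), the aortae of 5 homozygous *Tspan2* sg/sg mice, whose CArG box carries a substitution of adjacent bases, were compared with those of 5 wild-type mice. All were 12 weeks old and labelled C57BL/6, with 3 females and 2 males of each genotype. In the PE2 experiment (prime editing by a nicking Cas9 fused to a reverse transcriptase), 4 homozygous *Tspan2* peg/peg mice with a single-base substitution were compared with 4 wild-type mice. These were 8 weeks old and labelled FVB/N/B6(Cg)-Tyrc-2J/J, the peg/peg mice were all female and 1 of the wild-type mice was male. Age, strain background and editing platform thus differ together between the experiments and cannot be told apart. The edit is in the germ line and is present in every cell of the mouse. Each library is the aorta of a single animal, which the paper says was cleaned of the tissue around it. Adipocyte and skeletal muscle markers were still read in the libraries, at levels given further on. The HDR columns carry the numbers 2 to 6, which are not the numbers of the labels, so the sex of a given HDR library is not known here.

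Chemokines are small secreted proteins that guide the movement of leukocytes along a gradient by binding receptors coupled to G proteins. They are named after the spacing of their first cysteines (CC, CXC, C and CX3C). Some are made constantly and set where cells reside, such as *Cxcl12*, and others are induced by cytokines through NF-kB or interferon signalling, such as *Ccl2*, *Cxcl1* and *Cxcl10*. In a vessel wall, fibroblasts, endothelium, smooth muscle and resident macrophages can all be sources. In bulk tissue, fewer cells of a type and less RNA per cell cannot be told apart.

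Promoter sequences of the inducible CXC ligands are shown because they carry the element through which these genes are known to respond to inflammatory signals, to be read beside the levels given further on. The NF-kB consensus was searched by its name's standard pattern on both strands of the RefSeq windows (GRCm38.p6, 250 bases before to 50 after each gene's start). Of the 40 genes, 27 had windows, 33 in all, and 7 of these (21.2%) held a match, in *Ccl9*, *Ccl20*, *Ccl27a*, *Cxcl1*, *Cxcl2*, *Cxcl3* and *Cxcl10*, where 4.51% of all 32851 windows did. The CArG box, the class of element edited upstream of *Tspan2*, was matched in 0 of the 33 windows and in 1.63% of all windows. At so low a share, 0 of 33 says nothing about the members. The paper places the CArG box of human *TSPAN2* further upstream than the 250 bases searched, so an element at such a distance would be missed. Genes without a window, among them *Ccl2*, *Ccl7*, *Ccl11* and *Cxcl16*, were not searched for any of these patterns. The pattern TTTCNNTTTC, a pair of interferon response half-sites, was matched on either strand in the windows of *Ccl19*, *Cxcl10* and *Cxcl14* and in 3.44% of all windows. A match is a description of the letters and not a site of binding. Below are 120 bases for each of 4 ligands, 5′ to 3′ on the strand of the gene, with an NF-kB match in capitals, at chr5:90891125-90891244 (*Cxcl1*, plus strand), chr5:90903779-90903898 (*Cxcl2*, plus), chr5:90785981-90786100 (*Cxcl3*, plus) and chr5:92348890-92349009 (*Cxcl10*, minus).
Cxcl1: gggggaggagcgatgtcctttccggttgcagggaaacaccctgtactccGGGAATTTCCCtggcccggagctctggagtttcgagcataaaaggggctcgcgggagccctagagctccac
Cxcl2: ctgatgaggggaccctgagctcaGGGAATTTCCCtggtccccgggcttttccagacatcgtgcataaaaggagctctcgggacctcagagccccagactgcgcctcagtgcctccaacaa
Cxcl3: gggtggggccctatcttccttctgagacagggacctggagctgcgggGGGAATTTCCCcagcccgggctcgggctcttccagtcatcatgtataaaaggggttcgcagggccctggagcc
Cxcl10: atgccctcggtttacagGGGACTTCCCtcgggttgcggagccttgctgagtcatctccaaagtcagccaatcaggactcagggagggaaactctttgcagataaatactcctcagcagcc
The capitals of *Cxcl1*, *Cxcl2* and *Cxcl3* are the same letters. They cover a match on the strand of the gene and an overlapping match, shifted by a base, on the opposite strand. In *Cxcl10* the capitals begin 103 bases before the start, and another NF-kB match, 159 bases before it, lies outside the stretch shown. Of these 4 genes, *Cxcl1* and *Cxcl10* had enough counts to be tested in both experiments, whereas *Cxcl2* held 33 counts over all HDR libraries and 19 over all PE2 libraries, and *Cxcl3* held 4 and 0.

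Libraries held 17290992 to 24880385 counts in the HDR experiment and 38820265 to 44895615 in the PE2 experiment. The targeted gene followed the labels. *Tspan2* fell from 209 ± 60.1 to 24.9 ± 8.12 CPM (counts divided by effective library size, mean ± SD, n = 5) in sg/sg aortae and from 218 ± 45.05 to 19.96 ± 6.74 CPM (n = 4) in peg/peg aortae, with adjusted p = 0.00226 and 0.0292 by edgeR. The smooth muscle markers, among them *Myh11* and *Acta2*, summed to between 15824 and 52393 CPM per library. Some libraries stood apart. In peg/peg 3 the skeletal muscle markers summed to 1133 CPM against 6.28 to 17.6 in the other 7 PE2 libraries, the adipocyte markers to 33.9 CPM against 536 to 2505, and the endothelium markers to 541 CPM against 1238 to 2902. The same library had the highest macrophage, fibroblast and lymphatic endothelium sums of the 8. Among HDR libraries the skeletal muscle sum was 126 CPM in wild-type 3 and 70.4 CPM in sg/sg 5, against 4.73 to 29.3 CPM in the other 8, and wild-type 3 was the highest library for *Ccl8*, *Ccl12*, *Cxcl14* and *Cx3cl1*. The adipocyte markers summed to 439 to 1980 CPM in HDR wild-type and 296 to 1710 CPM in sg/sg aortae.

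Of the 40 chemokine ligand genes, 19 had enough counts for the test in HDR aortae, where 16 fell under the minimum and 5 were at 0. In PE2 aortae 23 were tested, 8 fell under the minimum and 9 were at 0. The 5 genes without a count in either experiment were *Ccl21a*, *Ccl21b*, *Ccl21c*, *Ccl27* and *Ccl27b*. Several of these have near-identical copies in the genome, so reads of them could have been split or dropped in counting, and the same holds for *Ccl19*. By position, 12 of the 38 genes placed on a chromosome lie on chromosome 11 and 11 on chromosome 5, which hold the known clusters of CC and CXC ligands. *Cxcl16* on chromosome 11 and *Ccl24* and *Ccl26* on chromosome 5 lie apart from these clusters.

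No chemokine ligand gene differed between genotypes at an adjusted p under 0.05 by edgeR's quasi-likelihood test. The count was 0 of 19 in HDR aortae, where 0.00609% of all 16423 genes tested were called, and 0 of 23 in PE2 aortae, where 0.0061% of 16401 were. DESeq2's Wald test also called 0 members in each, where it called 0.00933% of all HDR and 0.149% of all PE2 genes, and at its unadjusted p under 0.05 were 6 HDR and 0 PE2 members, where 2.2% and 5.03% of all genes tested were. At an unadjusted p under 0.05, 3 members were lower in sg/sg aortae (*Ccl6*, *Ccl8* and *Cxcl9*) and 1 was higher (*Cxcl1*), where 1.63% and 0.353% of all genes passed in those directions. Without wild-type 3 the lower members were *Ccl6* and *Ccl19* and the higher 1 was *Cxcl10*, where 1.54% of all genes were lower and 0.445% higher. In peg/peg aortae 0 members were lower and 1 was higher (*Cxcl14*), where 1.27% and 3.04% of all genes were. Of the 19 genes tested in HDR aortae, 14 had a negative log2 fold change, and the median was -0.24 where the median of all genes was 0.00. In peg/peg aortae 9 of 23 were negative and the median was 0.11, against 0.01 for all genes. Without peg/peg 3, 21 of 24 were negative and the median was -0.22, where 8871 of all 16668 genes were negative and their median was -0.01. In that fit 1 member was lower at an unadjusted p under 0.05 (*Cxcl1*) and 0 higher, where 1.91% and 2.19% of all genes were.

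**Figure D1:**
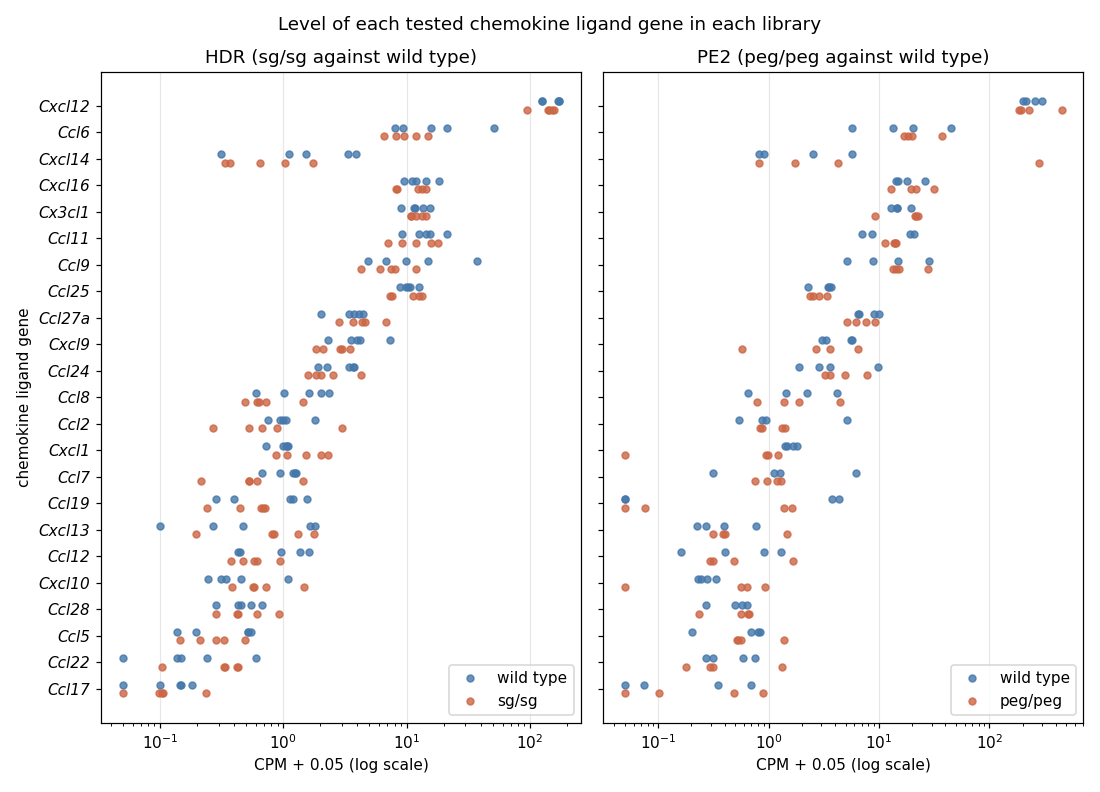
Level of each chemokine ligand gene that was tested in at least 1 experiment, in CPM plus 0.05 on a log scale, with 1 point per library, wild type in blue and mutant in orange. Apart from *Cxcl14* in peg/peg 3, which lies at 284 CPM, *Cxcl12* lies above the other genes in both panels, and the genotypes overlap for every tested gene but *Cxcl1* in the PE2 panel. *Ccl5*, *Ccl17*, *Ccl22* and *Ccl28* were tested in the PE2 experiment only.

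*Cxcl12*, the homeostatic ligand of *Cxcr4* and of the scavenging receptor *Ackr3*, had the highest mean level per length of exon. Per kilobase of exon its level was 18.7 CPM per kb in HDR wild-type aortae, followed by the eosinophil attractant *Ccl11* at 13.5 and by *Ccl6* at 11.7. In PE2 wild-type aortae the same genes led, at 29.8, 12.8 and 11.8 CPM per kb. The wild-type ranges of *Ccl11* and *Ccl6* overlapped in both experiments, so their order is not resolved. The lowest wild-type *Cxcl12* level, 15.3 CPM per kb in HDR and 24.4 in PE2 aortae, lay under the highest of *Ccl6* (28.4 and 25.2) in both experiments. *Cxcl12* took 41.3% to 70.1% of the summed CPM of all ligand genes in an HDR library and 50.2% to 77.2% in a PE2 library.

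In HDR wild-type aortae *Cxcl12* was at 174, 170, 171, 126 and 125 CPM, and in sg/sg aortae at 157, 143, 140, 150 and 94.3 CPM. The ranges overlapped, and the lowest library was sg/sg 6. The log2 fold change was -0.16 (standard error, SE, 0.16), with a 95% interval of -0.47 to 0.15 that includes 0. In PE2 wild-type aortae the levels were 200, 216, 259 and 299 CPM, and in peg/peg aortae 186, 194, 452 and 230 CPM. The highest value was that of peg/peg 3. The log2 fold change was 0.13 (SE 0.30), and it was -0.27 without that library.

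*Cxcl14*, a ligand made by fibroblasts and epithelia, spanned the widest range among PE2 libraries. In wild-type aortae it was at 5.61, 0.776, 0.861 and 2.45 CPM, and in peg/peg aortae at 0.776, 4.22, 284 and 1.69 CPM. Peg/peg 3 alone was high and held 97.7% of the summed level of its group. The log2 fold change of 4.91 (SE 1.97, adjusted p = 0.861 by edgeR's quasi-likelihood test) became -0.13 without that library. In the HDR experiment *Cxcl14* was at 1.06, 3.83, 0.265, 1.48 and 3.30 CPM in wild-type aortae and at 0.600, 0.289, 1.70, 0.982 and 0.319 CPM in sg/sg aortae. The groups overlapped, with a log2 fold change of -1.36 (SE 0.66), and of -0.98 without wild-type 3. The fibroblast markers summed to 11883 CPM in peg/peg 3 against 5667 to 10640 CPM in the other 7 PE2 libraries, and the lymphatic endothelium markers to 218 CPM against 50.8 to 119.6 CPM. The part of these and of the skeletal muscle, adipocyte, endothelium and macrophage levels of peg/peg 3 in its *Cxcl14* level was not tested.

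**Figure D2:**
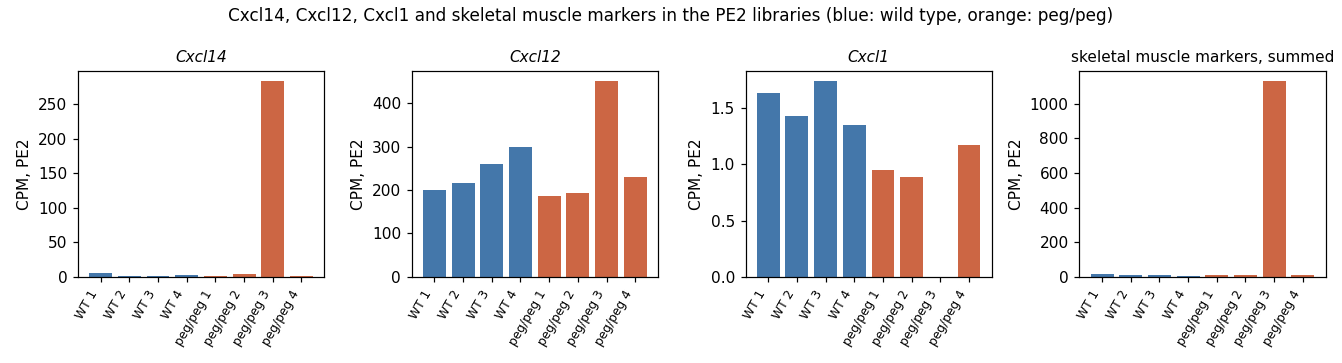
*Cxcl14*, *Cxcl12*, *Cxcl1* and the summed skeletal muscle markers in each PE2 library, in CPM on linear axes from 0, with wild type in blue and peg/peg in orange. Peg/peg 3 is the highest for *Cxcl14* (284 CPM), *Cxcl12* (452 CPM) and the skeletal muscle markers (1133 CPM), and has no *Cxcl1* counts.

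*Cxcl1*, a neutrophil attractant bound by *Cxcr2* and the first of the promoters shown above, had log2 fold changes of opposite sign. In HDR wild-type aortae it was at 1.01, 1.04, 1.01, 0.936 and 0.676 CPM, and in sg/sg aortae at 1.47, 0.820, 1.02, 2.24 and 1.97 CPM. Of the sg/sg libraries, 3 lay above all wild-type libraries and the other 2 among them. The 5 neutrophil markers, 2 of which had enough counts for the test, summed to 0.882 to 3.30 CPM in wild-type and 1.11 to 1.87 CPM in sg/sg aortae, and of these *Ly6g* was at 0 in 9 of the 10 libraries whereas *Csf3r*, *S100a8* and *S100a9* had counts in all of them. The log2 fold change was 0.69 (SE 0.30, adjusted p = 1.00 by edgeR's quasi-likelihood test). Among PE2 libraries *Cxcl1* was at 1.63, 1.43, 1.74 and 1.35 CPM in wild-type aortae and at 0.945, 0.891, 0 and 1.17 CPM in peg/peg aortae. All peg/peg libraries lay below all wild-type libraries, as did 1.1% of all genes tested, while 1.43% lay wholly above. The exact two-sided permutation p was 0.0286, the smallest that 4 libraries against 4 can give. Groups that do not overlap always give this value, so it only restates their order. By edgeR's quasi-likelihood test the unadjusted p was 0.287 and the adjusted p 0.862. The log2 fold change was -1.03 (SE 0.91), and -0.62 without peg/peg 3, whose 0 counts allow a level of up to 0.0659 CPM. In these libraries the neutrophil markers summed to 2.38 to 8.89 CPM (median 3.71) in wild-type and 1.35 to 5.26 CPM (median 1.74) in peg/peg aortae. Of the 3 markers tested, 2 had negative and 1 a positive log2 fold change. The part of neutrophil content in the *Cxcl1* levels of either experiment was not tested. In the HDR experiment no member's groups were apart, where 0.122% of all genes lay wholly above and 0.195% wholly below.

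The difference between the experiments in the effect of genotype was tested by an interaction contrast over all 18 libraries. Of 22 members tested 0 were called, and 0% of 18094 genes were. At an unadjusted p under 0.05, 1 member (*Cxcl14*, log2 difference 6.28, SE 1.95, PE2 minus HDR, adjusted p = 0.870 by edgeR's quasi-likelihood test) passed, where 5.13% of all genes did. Without peg/peg 3 its log2 difference was 1.23 (SE 1.07) and no longer passed, and the 1 member that passed was *Cxcl1* (-1.31, SE 0.43, adjusted p = 1.00 by edgeR), where 3.28% of all genes did. For *Cxcl1* with all libraries the log2 difference was -1.74 (SE 0.88, adjusted p = 0.967 by the same edgeR test), so the opposite directions were not resolved at the adjusted threshold with or without that library.

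The CC ligands *Ccl2*, *Ccl7*, *Ccl8* and *Ccl12* lie close together on chromosome 11. Of these, *Ccl2*, *Ccl7* and *Ccl12* attract monocytes and bind mainly *Ccr2* and related receptors. *Ccl2* was at 1.01, 0.898, 0.706, 0.936 and 1.78 CPM in HDR wild-type aortae and at 0.218, 0.627, 0.848, 2.95 and 0.479 CPM in sg/sg aortae. The gene overlaps *Gm17268* on the opposite strand. The highest library was sg/sg 5, 3 sg/sg libraries lay below all wild-type libraries and 1 among them, with a log2 fold change of -0.04 (SE 0.57). Without sg/sg 5 it was -0.97. In PE2 wild-type aortae *Ccl2* was at 5.10, 0.827, 0.485 and 0.907 CPM, and in peg/peg aortae at 1.36, 0.814, 1.27 and 0.782 CPM. Wild-type 1 was the highest, as it was for *Ccl7* (6.19 CPM against 0.265 to 1.24 CPM in the other PE2 libraries), and without it the log2 fold change turned from -0.79 to 0.51 for *Ccl2* and from -1.13 to 0.22 for *Ccl7*.

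*Ccl8* was at 0.553, 2.32, 0.970, 1.58 and 1.99 CPM in HDR wild-type aortae and at 0.437, 0.675, 0.566, 1.40 and 0.585 CPM in sg/sg aortae. Of the 5 sg/sg libraries, 4 lay below 4 of the 5 wild-type libraries. The log2 fold change was -0.999 (SE 0.43, adjusted p = 1.00 by edgeR's quasi-likelihood test), or -0.78 without wild-type 3, the highest library. Among PE2 libraries it was 0.0032 (SE 0.69), with 0.596 to 4.12 CPM in wild-type and 0.730 to 4.39 CPM in peg/peg aortae, and it was -0.68 without peg/peg 3.

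*Ccl6* and *Ccl9*, mouse CC ligands of myeloid cells that bind *Ccr1*, were among the most abundant members. In HDR wild-type aortae *Ccl6* was at 9.25, 15.8, 8.03, 21.1 and 51.0 CPM, and in sg/sg aortae at 6.50, 9.50, 11.9, 14.96 and 8.14 CPM. *Ccl9* was at 4.82, 9.78, 6.70, 14.98 and 37.2 CPM in wild-type and at 4.26, 6.08, 7.41, 11.8 and 8.03 CPM in sg/sg aortae. Wild-type 6 was the highest for both, and the ranges of the rest overlapped. The log2 fold changes of -1.04 (SE 0.46) for *Ccl6* and -0.97 (SE 0.50) for *Ccl9* became -0.41 and -0.27 without it. For the PE2 libraries *Ccl6* was at 45.2, 13.4, 5.65 and 20.4 CPM in wild-type and at 19.8, 18.2, 36.9 and 16.9 CPM in peg/peg aortae, which gave a log2 fold change of 0.12 (SE 0.57), and of -0.21 without peg/peg 3. *Ccl6* overlaps *E230016K23Rik* on the opposite strand.

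The macrophage markers were highest in the same libraries. They summed to 218, 318.8, 266, 378 and 623 CPM in HDR wild-type aortae and to 165, 212, 217, 319.1 and 211 CPM in sg/sg aortae. All 6 markers had negative log2 fold changes, with a median of -0.71. At an unadjusted p under 0.05, 5 were lower, where 1.63% of all genes were, and 0 were called at the adjusted threshold. The 5 became 2 without wild-type 6, and also without sg/sg 2 or without sg/sg 6, and 6 without sg/sg 5. Per 100 CPM of macrophage markers, *Ccl6* stood at 3.02 to 8.19 CPM in wild-type and 3.86 to 5.50 CPM in sg/sg aortae. *Ccl9* stood at 2.21 to 5.97 and 2.58 to 3.81 CPM. The PE2 sums ran from 131 to 461 CPM in wild-type and from 245 to 743 CPM in peg/peg aortae, and wild-type 1 and peg/peg 3 were the highest 2 libraries for *Ccl6*, for *Ccl9* and for the markers. The part of macrophage content in the *Ccl6* and *Ccl9* levels was not tested.

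**Figure D3:**
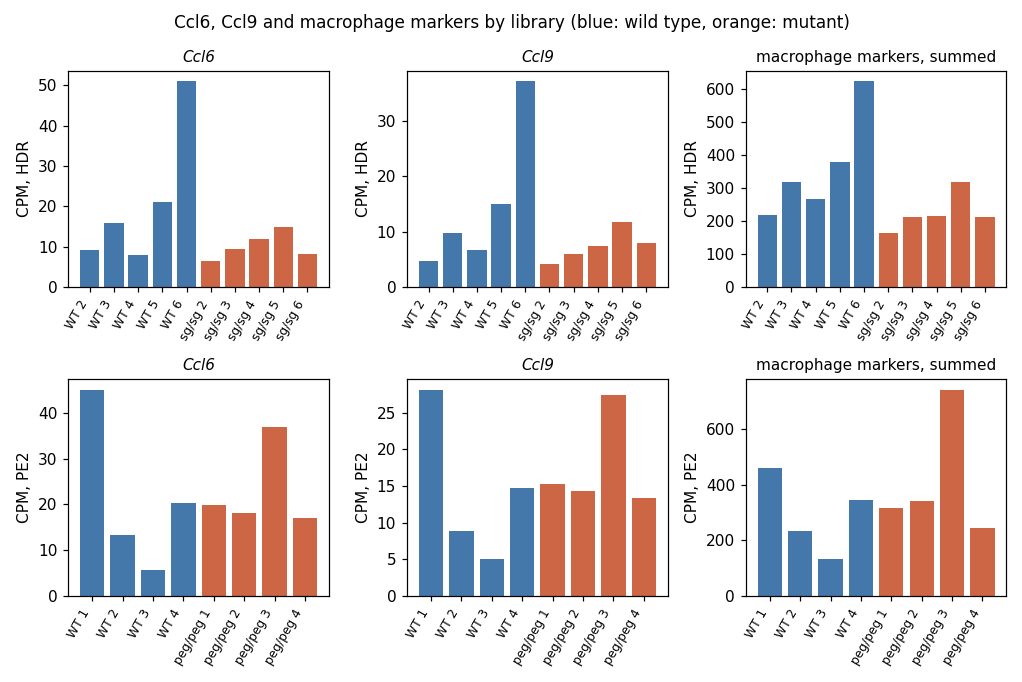
*Ccl6*, *Ccl9* and the summed macrophage markers in each library of the HDR (upper row) and PE2 (lower row) experiments, in CPM on linear axes from 0, with wild type in blue and mutant in orange. HDR wild-type 6 has the highest bar in each upper panel (51.0, 37.2 and 623 CPM), and PE2 wild-type 1 and peg/peg 3 have the 2 highest bars in each lower panel.

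The interferon-induced *Cxcr3* ligands were low. *Cxcl9* was at 3.47, 4.11, 2.25, 3.94 and 7.36 CPM in HDR wild-type aortae and at 2.95, 2.85, 2.04, 3.41 and 1.81 CPM in sg/sg aortae. Every sg/sg library lay below 4 of the 5 wild-type libraries, and the log2 fold change was -0.69 (SE 0.31, adjusted p = 1.00 by edgeR's quasi-likelihood test), or -0.40 without wild-type 6. Between PE2 genotypes it was -0.41 (SE 0.63), and peg/peg 3 was the lowest library at 0.527 CPM against 2.66 to 6.41 CPM in the other 7, and without it the value was -0.06. *Cxcl10* had positive log2 fold changes in both mutants, 0.65 (SE 0.51) and 1.15 (SE 0.89). With 1 library left out the HDR value ran from 0.22 (without sg/sg 2) to 1.24 (without wild-type 3). The PE2 value of *Cxcl10* ran from 0.70 (without peg/peg 3) to 1.54 (without peg/peg 4). Its levels were 0.197 to 1.04 CPM in HDR wild-type and 0.338 to 1.42 CPM in sg/sg aortae, and 0.178 to 0.287 CPM in PE2 wild-type against 0.509, 0.585, 0.879 and 0 CPM in peg/peg aortae. The gene overlaps *Art3* on the opposite strand, and whether the counting used strand is not stated.

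The transmembrane ligands *Cx3cl1* and *Cxcl16* can also tether leukocytes to a cell. *Cx3cl1* was at 8.97 to 15.3 CPM in wild-type and at 10.7 to 14.3 CPM in sg/sg aortae, and its log2 fold change was 0.00 (95% interval -0.30 to 0.30). In PE2 aortae it was at 14.7, 12.7, 19.4 and 14.5 CPM in the wild-type libraries and at 21.1, 21.8, 22.7 and 9.07 CPM in the peg/peg libraries. Of the latter, 3 lay above all wild-type libraries and peg/peg 4 below them, and the log2 fold change went from 0.29 (SE 0.29) to 0.50 without peg/peg 4 and to 0.17 without peg/peg 3. *Cxcl16*, which overlaps *Zmynd15* on the opposite strand, had log2 fold changes of -0.20 (SE 0.22) and 0.22 (SE 0.30), the latter -0.040 without peg/peg 3.

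**Figure D4:**
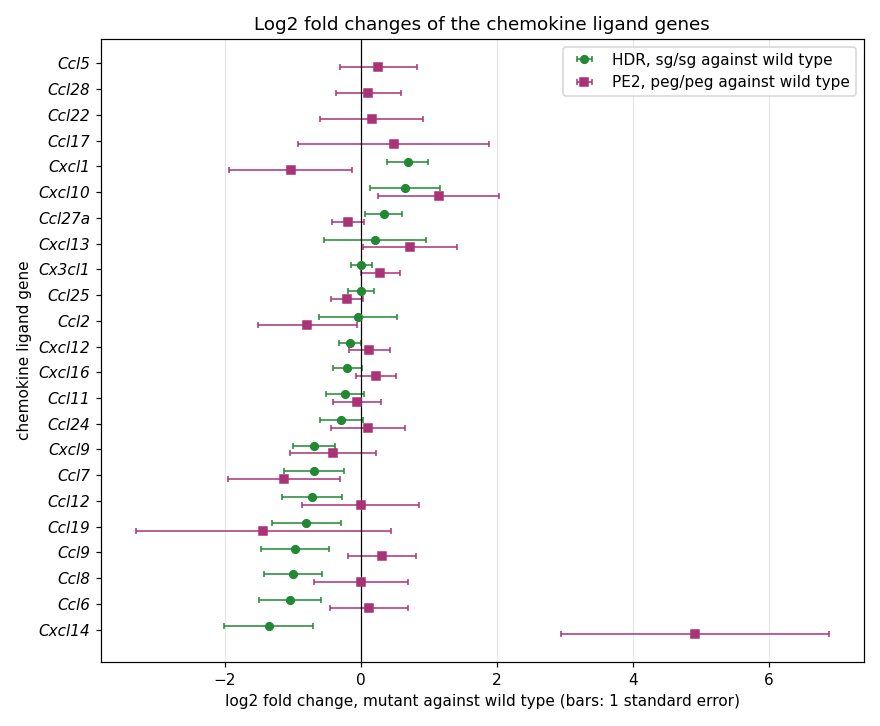
Log2 fold change of each tested chemokine ligand gene, mutant against wild type, with bars of 1 standard error, in the HDR (green circles) and PE2 (purple squares) experiments. The HDR values run from -1.36 (*Cxcl14*) to 0.69 (*Cxcl1*), and the PE2 value of *Cxcl14* (4.91) rests on 1 library.

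Among the remaining ligands, *Ccl11* was at 9.10 to 21.4 CPM in HDR wild-type and 6.99 to 18.1 CPM in sg/sg aortae. Its log2 fold changes were -0.24 (SE 0.28) in HDR and -0.06 (SE 0.35) in PE2 aortae. *Ccl24*, another ligand of the eosinophil receptor *Ccr3*, had log2 fold changes of -0.29 and 0.10. *Ccl27a* and *Ccl25*, each of which overlaps another gene on the opposite strand, had values of 0.33 and 0.00 in HDR and of -0.19 and -0.21 in PE2 aortae. *Cxcl13*, the B cell attractant, was below 2 CPM in all libraries. *Ccl19*, a ligand of *Ccr7* named here after its values were seen, was at 3.67, 0, 0 and 4.29 CPM in PE2 wild-type and at 1.33, 1.58, 0 and 0.0261 CPM in peg/peg aortae, so libraries of both genotypes were with and without it.

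Of the 19 genes tested in both experiments, 7 had negative and 3 positive log2 fold changes in both, 7 were negative in HDR and positive in PE2, and 2 (*Cxcl1* and *Ccl27a*) the reverse. The highest library was peg/peg 3 for 12 of the 23 members tested in the PE2 experiment and wild-type 1 for 7 of them. In the HDR experiment it was wild-type 6 for 6 of 19. How often each of these libraries was the highest over all genes was not counted. These counts are therefore not a trait of the ligands.

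The receptors of these ligands were counted from a list. Of 18 chemokine receptor genes, 5 were tested in HDR aortae, all with negative log2 fold changes (median -0.69), and 1 was lower at an unadjusted p under 0.05, where 1.63% of all genes were. This was *Ccr1*, the receptor of *Ccl6* and *Ccl9*, which averaged 2.02 ± 1.24 CPM in wild-type and 1.11 ± 0.34 CPM in sg/sg aortae (n = 5 each). Of the 6 macrophage markers 5 passed as lower in the same aortae, or 2 without wild-type 6, with the median of -0.71 given above. Their part in the receptor levels was not tested. In PE2 aortae 9 receptors were tested, 7 of them with positive values, and 0 passed, where 1.27% of all genes were lower and 3.04% higher. Peg/peg 3 was the highest library for *Ccr1*, *Ccr2*, *Cxcr4*, *Cx3cr1* and *Xcr1*, and the receptors summed to 55.7 CPM in it against 7.92 to 29.8 CPM in the other 7. Without it 3 of 10 receptors had positive values, the median was -0.34, *Ccr1* went from 0.80 to -0.49 and 1 receptor was lower at an unadjusted p under 0.05 (*Ccr9*, a receptor that had not been tested with all libraries), where 1.91% of all genes were. Of 5 atypical receptors, which bind or take up chemokines without classical signalling, *Ackr3* was the highest per kilobase (24.7 CPM per kb in HDR and 33.7 in PE2 wild-type aortae), with log2 fold changes of -0.45 (SE 0.24) and 0.31 (SE 0.18). *Ackr1* had values of -0.57 and 0.30, the latter -0.05 without peg/peg 3. *Ackr2* had a log2 fold change of -0.66 (SE 0.24) in sg/sg aortae, and of 0.54 (SE 0.37) in peg/peg aortae, or 0.23 without peg/peg 3. In sg/sg aortae it was the 1 atypical receptor of 5 lower at an unadjusted p under 0.05, where 1.63% of all genes were. *Ccrl2* was at 9.30 ± 2.87 and 10.7 ± 4.29 CPM in HDR wild-type and sg/sg aortae (n = 5 each). *Pf4* and *Ppbp*, chemokines that carry other names, had log2 fold changes of -0.55 and -0.69 in HDR and of 0.74 and 0.52 in PE2 aortae. These went to 0.10 and 0.91 without peg/peg 3, and the HDR value of *Ppbp* to 0.57 without wild-type 3.

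Signalling genes that can act upstream of inducible chemokines were read from 3 further lists. Of 15 tested NF-kB and cytokine genes, 0 passed an unadjusted p under 0.05 in HDR aortae, where 1.63% of all genes were lower and 0.353% higher. Their median log2 fold change was 0.03. In peg/peg aortae 3 passed, each with a positive value (*Nfkbia*, *Sele* and *Ptgs2*), with a median of 0.22, where 3.04% of all genes were higher. *Sele*, an endothelial adhesion molecule, was highest in peg/peg 3, and its log2 fold change of 1.47 became 0.82 without that library, whereupon *Nfkbia*, *Nfkbiz* and *Ptgs2* were the 3 that passed of 17 tested, where 2.19% of all genes were higher. *Ptgs2*, the inducible prostaglandin synthase, averaged 1.85 CPM in wild-type and 8.97 CPM in peg/peg aortae, with a log2 fold change of 2.28 (SE 0.44), which edgeR did not call (adjusted p = 0.861) and DESeq2 did, and of 1.93 without peg/peg 3, its highest library. Of 10 interferon response genes, 2 were lower in HDR and 2 higher in PE2 aortae at an unadjusted p under 0.05, where 1.63% and 3.04% of all genes were, and without peg/peg 3 the PE2 counts were 1 higher (*Gbp2*) and 1 lower (*Irf1*). Of 10 immediate early genes, 0 passed in HDR aortae and 7 were higher in peg/peg aortae, with a median log2 fold change of 1.21, where 3.04% of all genes were higher. These genes summed to 333 to 558 CPM in the PE2 wild-type libraries and to 1400, 1086, 537 and 1351 CPM in the peg/peg libraries, so peg/peg 3 lay among the wild-type libraries. Without it 9 of the 10 were higher, with a median of 1.48, where 2.19% of all genes were higher.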

How the data were processed

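Reads trimmed by fastp were aligned by the authors with STAR 2.7.0f (GRCm38, Gencode M22) and counted with featureCounts (Subread 1.6.4). The authors deposited raw counts per gene for each experiment. They also deposited normalized values on a signal scale, each count divided by a DESeq2 size factor per library (0.883 to 1.17 in HDR, 0.940 to 1.12 in PE2), which were used only to check these factors. The labels name another kit and read length than the methods, and neither states the strand setting.

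Each experiment was fitted by itself with edgeR 4.0.16 (TMM, filterByExpr, quasi-likelihood test, Benjamini-Hochberg adjustment over all genes tested) in R 4.3.3. CPM values use the TMM library sizes. The alternative tools were limma-voom (limma 3.58.1) and DESeq2 1.42.0 with its default independent filtering. A second run with that filtering set for an adjusted p of 0.05 was added after the count of the first had been seen beside another count from these data. Single values were compared by exact two-sided permutation tests (scipy 1.17.1), whose smallest p is 0.00794 for 5 against 5 and 0.0286 for 4 against 4. Intervals of 95% are the estimate plus or minus 1.96 standard errors. The fits were tested on simulated data. No 2 libraries of a group agreed within sampling noise (chi-square per degree of freedom of at least 17.2). Pairs that held peg/peg 3 stood at 634 to 675 over the genes compared, and the other peg/peg pairs at 71.7 to 103. A floor of 3 counts stands for a level of 0 and covers counting error only. Exon lengths and positions came from the Gencode M21 annotation of GRCm38. All libraries are of separate mice.

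The members and gene lists were chosen with earlier results of these data known. Genes were named by this rule: *Ccl2*, *Cxcl1* and *Cxcl12*, the 8 members highest per kilobase, the 4 with the smallest p in each direction, any member with an unadjusted p under 0.05 or groups apart, and receptors by the same p or among the 3 highest per kilobase. The numbers of PE2 libraries did not pair them (correlation of deviations from the group means between -0.290 and 0.0163 for libraries with the same number).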

Additional observations from a re-analysis of the deposited data

Results flagged for a closer look

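A library was listed where it stood far from the other libraries of its genotype by Dixon's ratio. Of 58 groups of named members, 16 had such a library. For normally distributed values chance flags about 1 in 20 groups (2.9 of 58), but CPM values need not be so distributed. Some members were named by their p in these same data, and the groups of one library are not independent. The share of groups flagged over all genes was not counted, so 16 beside 2.9 is a description and not a test. Of the 16, 5 were of peg/peg 3, which was high for *Cxcl14* (284 CPM), *Cxcl12* (452 CPM), *Ccl6* (36.9 CPM), *Ccl9* (27.5 CPM) and *Cxcl13* (1.43 CPM). PE2 wild-type 1 was high for *Ccl2* (5.10 CPM) and *Ccl7* (6.19 CPM). Peg/peg 4 was low for *Cx3cl1* (9.07 CPM) and *Ccl11* (11.4 CPM), and PE2 wild-type 2 was low for *Ccl25* (2.23 CPM). In the HDR experiment, sg/sg 5 was high for *Ccl2* (2.95 CPM) and *Ccl8* (1.40 CPM), and sg/sg 6 was low for *Cxcl12* (94.3 CPM). Wild-type 6 was high for *Ccl2* (1.78 CPM) and low for *Cxcl1* (0.676 CPM), and wild-type 3 was high for *Cxcl10* (1.04 CPM).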

How the results depend on the processing

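In every alternative run, 0 chemokine ligand genes were called in either experiment or in the interaction. Over all genes, edgeR called 1 HDR gene, and DESeq2's Wald test and edgeR without a filter each called 4. It called 1 PE2 gene, against 30 by DESeq2 with default filtering, 33 by DESeq2 with filtering set for 0.05 (an alternative chosen after seeing the data), and 0 with female libraries alone or sex as a covariate. With the replicate number as a block, which the data did not show to pair the libraries, the PE2 counts went to 0 genes called and 0 members at an unadjusted p under 0.05. Leaving out 1 library gave 0 to 2 called PE2 genes. The 4 HDR members at an unadjusted p under 0.05 became 0 by limma-voom and 0 to 6 with a library left out, with 0 without sg/sg 2, sg/sg 6, wild-type 5 or wild-type 6. The 1 PE2 member, *Cxcl14*, became 0 by DESeq2, which gave it no p, by limma-voom, with female libraries alone and with sex as a covariate, and 0 to 3 with a library left out.

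Directions turned for few HDR members. *Cx3cl1* was at -0.012 with no filter. With 1 library left out *Ccl2* ran from -0.97 to 0.22, *Cxcl13* from -0.15 to 0.67 and *Cx3cl1* from -0.092 to 0.098. In the PE2 experiment *Ccl8* was at -0.0054 with at least 10 counts in every library, -0.013 with no filter and -0.036 with the replicate block. *Ccl11* was at 0.13 with female libraries alone, 0.12 by limma-voom, 0.092 with the replicate block and 0.14 with sex as a covariate. With 1 library left out the ranges were -1.11 to 0.51 for *Ccl2*, -0.21 to 0.80 for *Ccl6*, -1.51 to 0.22 for *Ccl7*, -0.68 to 0.57 for *Ccl8*, -0.28 to 0.19 for *Ccl11*, -0.27 to 0.25 for *Cxcl12*, -0.19 to 1.26 for *Cxcl13*, -0.13 to 5.73 for *Cxcl14* and -0.040 to 0.43 for *Cxcl16*. The causes were not tested. Members under about 1 CPM rest on few counts, which limits what could be detected. HDR libraries carry no label numbers, so no paired or sex-adjusted HDR fit was run.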
